A study of Homo sapiens with 6 samples.

Results

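The 10 genes described here, KLF2, KLF4, KLF5, KLF6, KLF10, EGR1, NR4A1, IER2, IER3 and MYC, are immediate early genes outside the AP-1 family. They were chosen by name, with earlier results of these data known. Every probe set that the platform annotation assigns to one of these genes alone was taken. This gave 21 of the 54675 probe sets and 10 of 19775 genes. RNA came from A549, an established human lung adenocarcinoma line, transduced with a lentivirus whose short hairpin RNA is expressed when tetracycline or its analogue is present. The non-targeting hairpin defined the line shNTC, and separate hairpins against CNOT3, a subunit of the CCR4-NOT deadenylase complex, defined shCNOT3-1 and shCNOT3-2. Each of the 3 lines was cultured for 72 hours without doxycycline (DOX) or with DOX at 1 ug/ml, which induces the hairpin, and each of these 6 states was read on 1 array. All 6 states share the A549 background and an integrated hairpin cassette, so the uninduced arrays are not parental cells, and the labels do not say whether a line is 1 clone or a pool.

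Immediate early genes are transcribed within minutes of a growth factor, stress or serum signal, without new protein synthesis, and their mRNAs are short-lived. Signals through ERK reach serum response factor (SRF) and its ETS partners on CArG boxes, and cyclic AMP signals reach CREB on cyclic AMP response elements (CREs). Many early mRNAs carry AU-rich elements in the 3′ UTR, where proteins such as ZFP36 recruit CCR4-NOT to remove the poly(A) tail. The KLF proteins bind GC-rich and CACCC sequences through C-terminal zinc fingers, EGR1 is a zinc finger activator that binds a GC-rich site, and NR4A1 is an orphan nuclear receptor. MYC is the basic helix-loop-helix factor that drives growth genes with its partner MAX, IER2 is a small nuclear protein, and IER3 is a stress-induced regulator of cell survival.

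The sequences before the transcription starts of KLF2, NR4A1 and EGR1 are shown because KLF2 and NR4A1 had the largest knockdown changes of the 10 genes, and EGR1 was the only one of the 7 in the promoter table with a CArG box. They are the 250 bases before each RefSeq start (GRCh38.p14), 5′ to 3′ on the strand of the gene. Capitals mark matches on either strand to a CArG box, an EGR site (GCGNGGGCG), the CRE core (TGACG), an AP-1 site (TGANTCA) or a GC box (GGGCGG). The CArG box was searched as CC and GG with only A or T between them, 10 bases in all. Matches may overlap, as do the EGR site and a pair of GC boxes at the start of the KLF2 window.
KLF2, chr19:16324576-16324825, plus strand: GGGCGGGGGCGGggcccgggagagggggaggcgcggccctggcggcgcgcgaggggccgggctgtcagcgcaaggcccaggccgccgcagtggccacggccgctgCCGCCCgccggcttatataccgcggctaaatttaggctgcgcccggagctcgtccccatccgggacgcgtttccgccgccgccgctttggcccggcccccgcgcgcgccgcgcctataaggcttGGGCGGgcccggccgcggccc
NR4A1, upstream start, chr12:52022582-52022831, plus strand: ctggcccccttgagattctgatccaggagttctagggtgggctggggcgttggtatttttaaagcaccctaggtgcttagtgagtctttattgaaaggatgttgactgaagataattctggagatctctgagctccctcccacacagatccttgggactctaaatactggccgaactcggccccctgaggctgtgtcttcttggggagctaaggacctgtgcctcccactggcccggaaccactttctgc
NR4A1, downstream start, chr12:52037465-52037714, plus strand: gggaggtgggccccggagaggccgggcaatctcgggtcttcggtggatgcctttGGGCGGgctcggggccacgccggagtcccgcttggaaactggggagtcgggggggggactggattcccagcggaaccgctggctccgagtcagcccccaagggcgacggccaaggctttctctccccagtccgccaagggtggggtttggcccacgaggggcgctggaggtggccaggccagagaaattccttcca
EGR1, chr5:138465229-138465478, plus strand: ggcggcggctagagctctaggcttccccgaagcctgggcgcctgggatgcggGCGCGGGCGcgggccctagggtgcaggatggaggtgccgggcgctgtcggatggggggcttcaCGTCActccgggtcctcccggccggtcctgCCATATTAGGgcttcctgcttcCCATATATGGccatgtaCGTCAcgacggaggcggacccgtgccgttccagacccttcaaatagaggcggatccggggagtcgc

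EGR1 held 2 CArG boxes, at 105 and 83 bases before the start, with CRE cores at 135 and 66 bases on either side of them. A CArG box was present in 1.16% of 34943 windows of this length, and a CRE core in 21.2%. KLF2 held an EGR site 248 bases before the start and 4 GC boxes. An EGR site occurred in 8.39% of windows and a GC box in 42.5%. NR4A1 had 1 GC box before the downstream of its listed starts and no match before the upstream one. Only starts in the promoter table were searched, so any other start of a gene is not covered. Across the 7 genes with a window, EGR sites were also found in EGR1 itself, KLF4 and KLF6, CRE cores in IER2, KLF4 and KLF5, and an AP-1 site, present in 6.59% of all windows, in none. These are letter matches, which do not show binding.

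The labels were first checked on CNOT3. Its brightest probe set stood at 177.6 in uninduced and 165.9 in induced shNTC cells. The uninduced and induced values were 226.9 and 81.9 for shCNOT3-1, and 228.2 and 46.87 for shCNOT3-2. Against 12630 genes the adjusted p in limma was 0.0677, and CNOT3 did not pass 0.05. Another probe set went from 259.3 to 95.62 in shNTC as well, a log2 change of -1.43, so the control line was not flat on every CNOT3 probe set. All 5 epithelial markers (KRT8, KRT18, KRT19, CDH1 and EPCAM) lay above the filter on dim genes, as did all 5 markers of high NRF2 activity and aldo-keto reductase level typical of A549. Of the markers of other cells, PTPRC, CD3E, CDH5, VWF, COL3A1 and LUM were too dim, while 1 of 3 leukocyte markers (CD14), 1 of 3 endothelial markers (PECAM1) and 2 of 4 fibroblast markers (COL1A1 and DCN) were above the filter. ACTB signal at the 3′ end relative to the 5′ end went from 1.58 to 1.47 in shNTC on adding DOX, from 1.33 to 1.42 in shCNOT3-1, and from 1.36 to 1.45 in shCNOT3-2. It was therefore higher with DOX in both knockdown lines and lower in the control, and the part this plays in the results below was not tested. GAPDH did not share this pattern, going from 0.98 to 0.966 in shNTC, from 0.98 to 1.03 in shCNOT3-1, and from 1.09 to 1.05 in shCNOT3-2.

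On the brightest probe set of each of the 10 genes, KLF2 and NR4A1 were more than 2-fold higher with DOX in both CNOT3 lines. No other probe set of KLF2 or NR4A1 reached 2-fold in both lines. EGR1 and KLF5 were higher by less, KLF6 went opposite ways in the hairpins, and KLF4 was lower in shCNOT3-1 alone. IER2, IER3, KLF10 and MYC stayed within 1.67-fold from the lowest to the highest array. None of the 10 passed the threshold of an adjusted p under 0.05 for knockdown in limma, where 0.222% of 12630 genes did. Of the 10, KLF2 and NR4A1 had an unadjusted p under 0.05, both higher, or 2 of 10, against 14.5% of all genes in either direction and 7.45% higher, so with 10 genes the share lies near the background. Leaving out the block that pairs the arrays of a line gave 2 calls, KLF2 (log2 1.41, adjusted p = 0.0183) and NR4A1 (log2 1.21, adjusted p = 0.0204). That fit ignores the pairing and called 191 of the 12630 genes, against 28 with the block. In 4 of the 10 genes, KLF2, NR4A1, EGR1 and KLF5, both CNOT3 arrays with DOX stood above the other 4 arrays, and in none did both stand below. Over all genes tested, 28.8% had both arrays on 1 side of the rest, 2019 genes above and 1618 (12.8%) below. The arrays read RNA of a whole culture, so fewer cells that express a gene and less of its RNA per cell cannot be told apart.

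**Figure D1:**
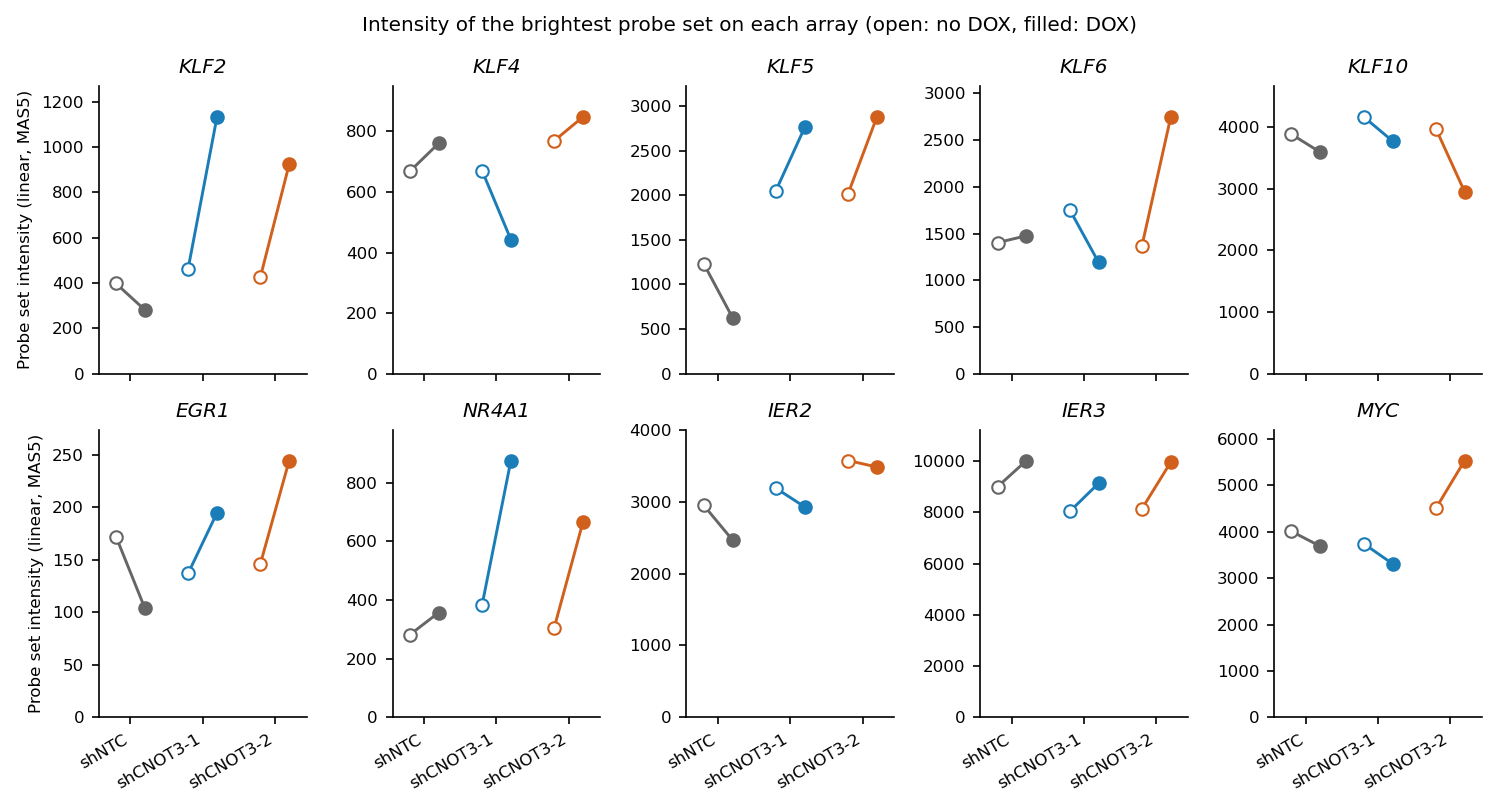
Each panel plots the intensity of a gene's brightest probe set (vertical axis, linear MAS5 units, from 0) on the 6 arrays, grouped by line along the horizontal axis. Open circles are arrays without DOX, filled circles arrays with DOX, and a line joins the 2 arrays of a line, with no error bars because each state has 1 array. KLF2 and NR4A1 stand at 1134 and 875.7 with DOX in shCNOT3-1 and at 924.6 and 667.4 in shCNOT3-2, above every other array, while KLF6 lies lowest in shCNOT3-1 with DOX and highest in shCNOT3-2 with DOX.

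KLF2, a factor known for quiescence in endothelium and T cells, went from 398.2 to 281.5 in shNTC on adding DOX, from 464.3 to 1134 in shCNOT3-1, and from 425.6 to 924.6 in shCNOT3-2. The 3 uninduced arrays lay within 0.22 of each other on the log2 scale, the CNOT3 arrays with DOX were above them and the shNTC array with DOX was below. The DOX difference was 2.44-fold in shCNOT3-1 and 2.17-fold in shCNOT3-2, a mean log2 change of 1.20 ± 0.12 (SD, n = 2 hairpins), against -0.50 in shNTC. The model gave an SE of 0.24 and an adjusted p of 0.0752 in limma. The excess over shNTC was 1.70 ± 0.40 (SE), with an adjusted p of 0.295. A second KLF2 probe set was too dim for the test, at 8.80 to 42.9, and had log2 changes of the same signs, -1.42 in shNTC, 2.01 in shCNOT3-1 and 0.87 in shCNOT3-2.

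KLF5, a factor of proliferating epithelium, differed already among the uninduced lines. On adding DOX it went from 1233 to 627.0 in shNTC, from 2052 to 2763 in shCNOT3-1, and from 2017 to 2880 in shCNOT3-2. The uninduced CNOT3 lines were thus above shNTC, by up to 0.73 on the log2 scale, the widest uninduced range among the 10 genes. With DOX the log2 change was 0.43 and 0.51 in the CNOT3 lines (mean 0.47, SE 0.29, adjusted p = 0.495 in limma) and -0.97 in shNTC, where 50.9% was left. The excess over shNTC was 1.45 ± 0.35 (SE, adjusted p = 0.303), and more of it came from the lower value in shNTC than from the higher values in the CNOT3 lines. The second probe set was also lower with DOX in shNTC, at 804.0 and 599.8, and higher in both CNOT3 lines, from 1013 to 1701 in shCNOT3-1 and from 979.7 to 1278 in shCNOT3-2.

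KLF6, a tumour suppressor-type KLF induced by serum and injury, separated the hairpins. Its brightest probe set went from 1403 to 1477 in shNTC on adding DOX, from 1755 to 1191 in shCNOT3-1, and from 1369 to 2750 in shCNOT3-2. With DOX shCNOT3-1 was the lowest and shCNOT3-2 the highest of the 6 arrays, and the log2 changes were -0.56 and 1.01. The mean of 0.22 ± 1.11 (SD, n = 2 hairpins, adjusted p = 0.791) therefore describes neither line. The 3 next brightest KLF6 probe sets split the same way, with log2 changes from -0.70 to -0.29 in shCNOT3-1, from 0.69 to 1.03 in shCNOT3-2 and from 0.26 to 0.59 in shNTC. The dimmest probe set, at 64.4 to 149.3, did not, with 0.38, -0.05 and -0.53 in the same order of lines. Probe sets of 1 gene read the same RNA and are not replicates of the condition. Opposite changes of at least 0.5 in size were seen in 2.75% of all genes tested, and opposite signs of any size in 39.9%.

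KLF4, a differentiation and pluripotency factor, was lower with DOX in shCNOT3-1 alone. Its brightest probe set went from 668.5 to 761.1 in shNTC on adding DOX, from 671.0 to 442.8 in shCNOT3-1, and from 769.3 to 848.4 in shCNOT3-2. The shCNOT3-1 array with DOX was the lowest of the 6, at 66.0% of its uninduced level, and the other pairs differed by 0.19 and 0.14 on the log2 scale. The second probe set, at 104.2 to 139.8 on 5 arrays, stood at 20.98 on the same shCNOT3-1 array, or 19.5% of the uninduced 107.8. The mean change of -0.23 had an adjusted p of 0.703 in limma, and the hairpins were not tested against each other.

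KLF10, a TGF-beta early gene that represses transcription, went from 3885 to 3594 in shNTC on adding DOX, from 4169 to 3777 in shCNOT3-1, and from 3979 to 2951 in shCNOT3-2. All 3 lines were lower with DOX, by 0.11, 0.14 and 0.43 on the log2 scale, and the arrays without DOX lay within 0.10 of each other. The mean change in the CNOT3 lines was -0.29 ± 0.20 (SD, n = 2 hairpins, adjusted p = 0.486).

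EGR1 was dim. Its brightest probe set went from 172.0 to 103.8 in shNTC on adding DOX, from 137.0 to 194.6 in shCNOT3-1, and from 145.8 to 244.3 in shCNOT3-2, where the filter on dim genes stood at 61.4. The CNOT3 arrays with DOX were the highest pair and the shNTC array with DOX the lowest. The log2 changes were 0.50 and 0.74 in the CNOT3 lines, a mean of 0.62 ± 0.17 (SD, n = 2 hairpins, SE 0.35, adjusted p = 0.456), and -0.72 in shNTC, and the excess over shNTC was 1.34 (adjusted p = 0.573). The other EGR1 probe sets were too dim and did not share 1 direction in the CNOT3 lines. One stood at 11.81 in shNTC with DOX, against 52.5 to 101.9 on the other arrays, with log2 changes of -0.12 and -0.40 in the CNOT3 lines. The other gave 2.33 and 1.13 there and -0.84 in shNTC, between 8.25 and 66.3. In shNTC, all 3 EGR1 probe sets were lower with DOX.

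NR4A1, also called Nur77, went from 281.8 to 357.4 in shNTC on adding DOX, from 382.3 to 875.7 in shCNOT3-1, and from 305.6 to 667.4 in shCNOT3-2. Both CNOT3 arrays with DOX were above the rest, at 2.29 and 2.18 times their uninduced levels, while the shNTC ratio was 1.27. The mean log2 change of 1.16 ± 0.05 (SD, n = 2 hairpins, SE 0.23) had an adjusted p of 0.0745 in limma, and the excess over shNTC, 0.82 ± 0.41 (SE), an adjusted p of 0.651. This probe set is of the kind (suffix x) whose probes can also bind other transcripts. A further one of that kind went from 86.11 to 224.9 in shCNOT3-2 but from 184.1 to 209.0 in shCNOT3-1 and 220.6 to 233.4 in shNTC, so its highest level was in the control line. The remaining probe set was higher with DOX in every line, with log2 changes of 0.60 in shNTC, 1.41 in shCNOT3-1 and 0.83 in shCNOT3-2, and its CNOT3 arrays with DOX, at 156.8 and 120.8, lay on both sides of the shNTC array with DOX, at 154.9.

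MYC went from 4009 to 3688 in shNTC on adding DOX, from 3745 to 3312 in shCNOT3-1, and from 4503 to 5537 in shCNOT3-2. The shCNOT3-2 line held the 2 highest arrays, and the change with DOX was -0.18 in shCNOT3-1 and 0.30 in shCNOT3-2 on the log2 scale, against -0.12 in shNTC. The mean of 0.06 ± 0.34 (SD, n = 2 hairpins) had an adjusted p of 0.918.

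IER2 went from 2949 to 2465 in shNTC on adding DOX, from 3187 to 2926 in shCNOT3-1, and from 3572 to 3481 in shCNOT3-2, and every line was slightly lower with DOX. Its mean change in the CNOT3 lines was -0.08 ± 0.06 (SD, n = 2 hairpins, adjusted p = 0.884). IER3 went from 8999 to 10020 in shNTC on adding DOX, from 8032 to 9133 in shCNOT3-1, and from 8137 to 9959 in shCNOT3-2, and all 3 arrays with DOX stood above all 3 without. Its mean change in the CNOT3 lines was 0.24 ± 0.08 (SD, n = 2 hairpins, adjusted p = 0.484), and shNTC gave 0.16. The highest and the lowest array differed 1.45-fold for IER2 and 1.25-fold for IER3.

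**Figure D2:**
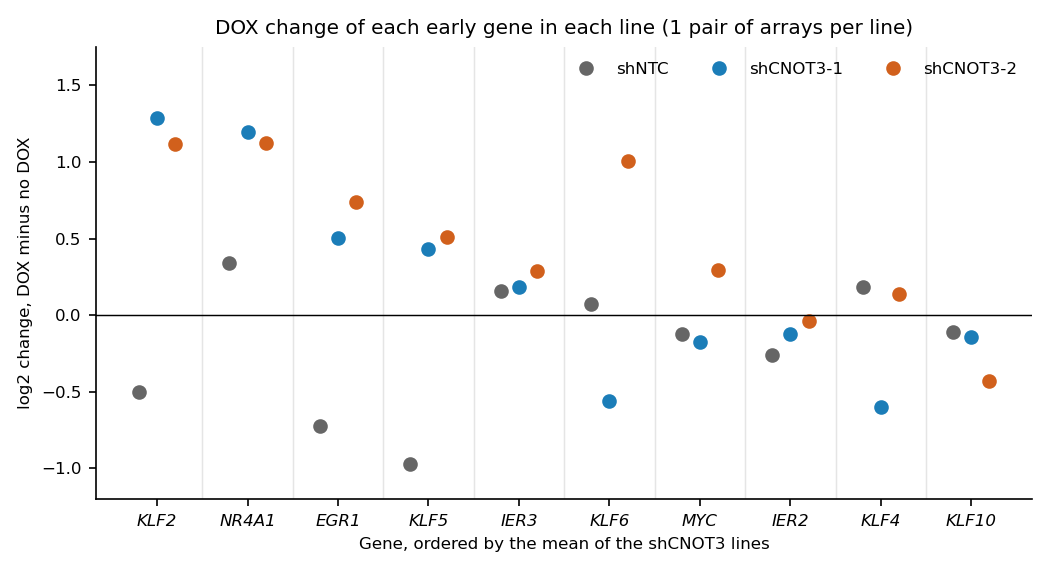
The plot shows the log2 DOX change (vertical axis, with minus without DOX, brightest probe set) of the 10 genes along the horizontal axis, with 1 point per line and no error bars because a line has 1 pair of arrays. KLF2 and NR4A1 have both CNOT3 points above 1, KLF5, EGR1 and KLF2 have the shNTC point below 0 and the CNOT3 points above it, and KLF6 has shCNOT3-1 at -0.56 and shCNOT3-2 at 1.01.

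By line, 4 of the 10 genes were higher with DOX in shNTC, 5 in shCNOT3-1 and 8 in shCNOT3-2. Over all genes tested the median log2 change in these lines was -0.01, 0.05 and 0.02. The median size of the log2 change of the 10 genes was 0.22 in shNTC and 0.47 in each CNOT3 line, where all genes tested had 0.23 and 0.29. Both hairpins were higher in 5 of the 10 genes, lower in 2 (IER2 and KLF10) and opposite in 3 (KLF4, KLF6 and MYC). Over all genes tested these shares were 33.2%, 26.9% and 39.9%. Both hairpins were opposite to shNTC in 3 of the 10 (KLF2, KLF5 and EGR1), against 31.0% of all genes tested. The size rule was at least 2-fold the same way in both CNOT3 lines, with the shNTC change that way under 0.5 of the smaller hairpin change. On the brightest probe set 2 of the 10 met it, KLF2 and NR4A1, against 1.08% of all genes tested. The 10 genes were chosen with earlier results of these data known, so this comparison is a description only. For the excess over shNTC none of the 10 passed in limma, where 0.00% of all genes did, and KLF2, KLF5 and EGR1 had an unadjusted p under 0.05, against 8.40% of all genes.

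**Figure D3:**
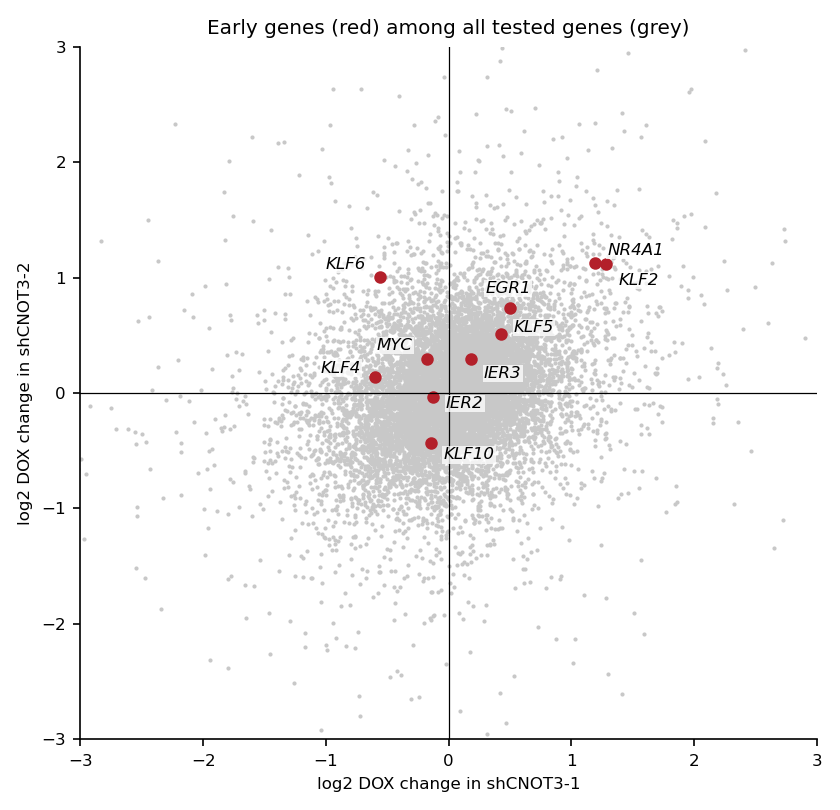
Each point is a gene, with its log2 DOX change in shCNOT3-1 on the horizontal and in shCNOT3-2 on the vertical axis. The 12630 tested genes are grey, of which 25 lie outside the range of 3 that is plotted, and the 10 early genes are red. KLF2 and NR4A1 lie above 1 on both axes, EGR1 and KLF5 nearer the centre of the same quadrant, and KLF6 at -0.56 and 1.01.

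**Figure D4:**
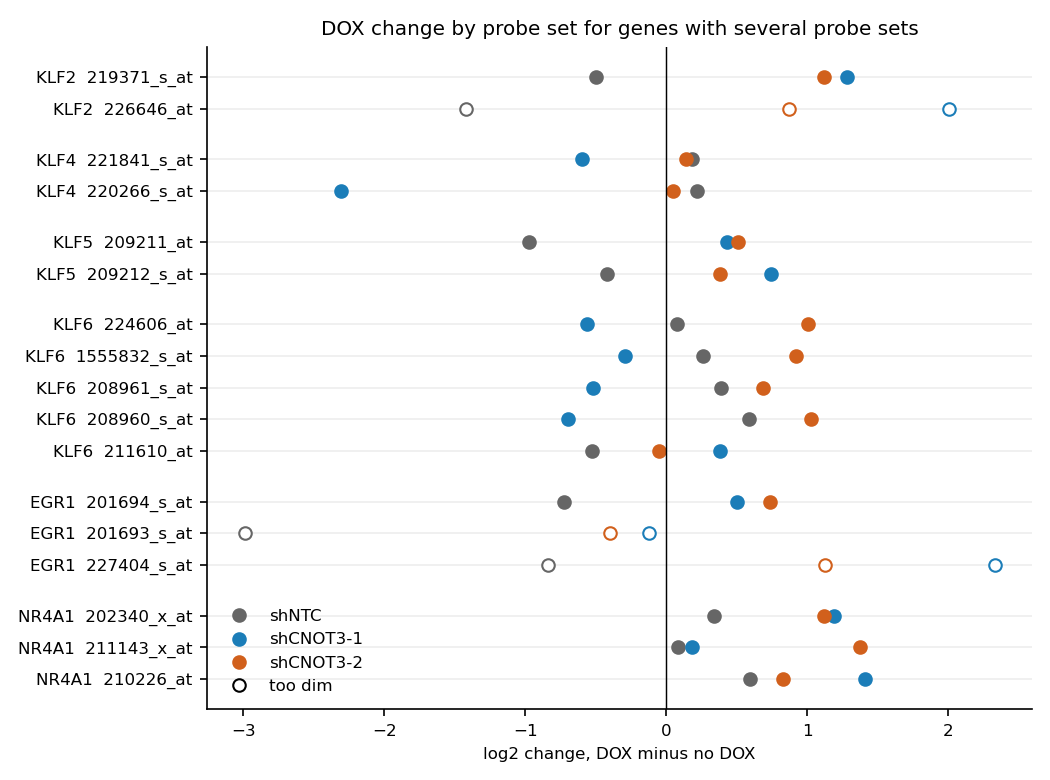
Rows are the probe sets of the 6 genes that have several, and the horizontal axis is the log2 DOX change, with 1 point per line. Open points mark probe sets too dim for the test. The shCNOT3-1 and shCNOT3-2 points of KLF6 stand on opposite sides of 0 for each of its 4 brightest probe sets, the KLF5 and KLF2 rows have shNTC to the left and both CNOT3 lines to the right of 0, and the rows of EGR1 and NR4A1 differ among themselves.

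Of 29 other immediate early genes listed, 25 were tested, 16 were higher in both CNOT3 lines and 1 was lower in both, where 33.2% and 26.9% of all genes were. Their median log2 change was 0.39 in shCNOT3-1, 0.76 in shCNOT3-2 and 0.16 in shNTC, against 0.05, 0.02 and -0.01 for all genes tested, and 0.03, 0.41 and -0.12 for the 10. DUSP5, which inactivates ERK, passed in limma (2.31, adjusted p = 0.01035), and 9 were higher and 1 lower at an unadjusted p under 0.05, where 7.45% and 7.08% of all genes were. The small MAF factor MAFF gave 0.99 and 0.95 by hairpin and -0.46 in shNTC, but 0.09 as the mean of a second probe set. The AP-1 subunit FOSL1 gave 0.89 and 1.71, and 0.28 in shNTC. The matrix protein gene CCN1 was higher with DOX in all 3 lines, by 0.90 and 1.84 in the hairpins and 1.58 in shNTC. Whether these genes differ as a list from the 10 was not tested, and listed genes that were not tested, here and below, were too dim or are not analysed here.

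Among other KLF genes 8 of 12 were tested, and none passed in limma. At an unadjusted p under 0.05, where 7.45% of all genes were higher and 7.08% lower, 0 were higher and 1 was lower. That gene was KLF13, which went from 3175 to 2297 in shNTC on adding DOX, from 3095 to 1690 in shCNOT3-1, and from 2905 to 1638 in shCNOT3-2, a mean log2 change of -0.85 (adjusted p = 0.120) with -0.47 in shNTC. KLF7 gave 0.23 and 0.59 by hairpin, KLF12 -0.17 and -0.14, and KLF3 0.45 and 0.02. Other probe sets above the filter were not all of the same signs, with 0.09 and -0.18 from one of KLF7, 0.59 and 1.81 from one of KLF12, and -0.17 and 0.65 from one of KLF3.

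Of the pathway from growth factor receptor to SRF, 16 of 21 listed genes were tested, and none passed in limma. At an unadjusted p under 0.05, 2 were higher and 2 lower, against 7.45% and 7.08% of all genes. EGFR, the receptor of epidermal growth factor, went from 2511 to 1994 in shNTC on adding DOX, from 2334 to 3231 in shCNOT3-1, and from 2767 to 4872 in shCNOT3-2, a mean log2 change of 0.64 ± 0.25 (SD, n = 2 hairpins, adjusted p = 0.197). Its next brightest probe set gave -0.10 in shCNOT3-1 and 0.70 in shCNOT3-2, and the other EGFR probe sets above the filter were higher in both. MAP2K5, the kinase that activates ERK5, gave 0.80 and 0.49 (adjusted p = 0.244), while dimmer probe sets above the filter gave 0.80 and 0.23, and 0.51 and -0.31. HRAS gave -0.59 and -0.26. SRF gave -1.51 and -0.23, and 0.49 in shNTC, while its other probe set, too dim for the test, was higher with DOX in every line. Medians of the list were -0.08, 0.02 and -0.09 in shCNOT3-1, shCNOT3-2 and shNTC.

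Of 4 tested partners of EGR1 and NR4A1 none passed in limma. At an unadjusted p under 0.05 there were 0 in either direction, against 14.5% of all genes. The corepressor NAB2, which binds EGR1, went from 29.19 to 165.9 in shNTC, was 140.0 and 138.5 in shCNOT3-1, and 55.98 and 47.12 in shCNOT3-2. The shNTC line without DOX was therefore the lowest array and with DOX the highest, but on a probe set with levels on both sides of the filter. RXRA, the retinoid receptor that pairs with NR4A1, gave -0.71 and -0.33 by hairpin and -0.63 in shNTC, and RXRB -0.26 and -0.20, and -0.36 in shNTC. Another RXRA probe set above the filter had opposed hairpins, at 0.53 and -0.31. A dimmer RXRB probe set above the filter gave -0.87 and -1.35 by hairpin and 1.03 in shNTC.

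In the MYC network 8 of 10 partners were tested and none passed in limma. At an unadjusted p under 0.05, 2 were higher and 1 lower, against 7.45% and 7.08% of all genes. MNT, which competes with MYC for MAX, went from 664.7 to 569.8 in shNTC on adding DOX, from 884.2 to 1336 in shCNOT3-1, and from 548.1 to 1096 in shCNOT3-2 (mean 0.80 ± 0.29, SD, n = 2 hairpins, adjusted p = 0.152). A second MNT probe set gave 0.88 and 0.89, with -0.03 in shNTC, so both had their CNOT3 arrays with DOX above the other 4. Among other MAX partners MXI1 gave 0.76 and 0.21, MXD3 -1.40 and -0.26, and MXD1 -0.54 and -0.16, with the opposite sign, 0.57 and 1.31, from a second MXD1 probe set. Of 22 tested targets of MYC none passed, and 2 were higher and 2 lower at an unadjusted p under 0.05, against the same shares. Their medians were 0.03, 0.11 and -0.10 in shCNOT3-1, shCNOT3-2 and shNTC. The nucleolar protein gene NOP16 gave 0.44 and 0.41, RRP9 0.22 and 0.30, ODC1, the polyamine synthesis enzyme, -0.25 and -0.24, and the cyclin CCND2 -0.54 and -0.30. A second NOP16 probe set had opposed hairpins, at -0.12 and 0.64. The CCND2 probe set was dim, at 51.24 to 149.2, and its uninduced arrays spanned 1.52 on the log2 scale. The other CCND2 probe sets, too dim for the test, were higher with DOX in every line.

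Of 9 tested RNA-binding proteins that act on mRNA stability or translation, most of them through AU-rich elements, 7 were lower in both CNOT3 lines and 1 higher in both, where 26.9% and 33.2% of all genes were. None passed in limma, and 0 were higher and 4 lower at an unadjusted p under 0.05, against 7.45% and 7.08% of all genes. TIA1 gave -0.36 and -0.85 by hairpin and -0.20 in shNTC (adjusted p = 0.245). ZFP36L2 gave -0.26 and -0.77 and ZFP36L1 -0.35 and -0.20, both of which recruit CCR4-NOT to AU-rich elements, and their shNTC values were 0.14 and 0.18. PUM2, which binds Pumilio elements rather than AU-rich ones, gave -1.24 and -0.25, with -0.23 in shNTC (adjusted p = 0.210). Other probe sets of TIA1 gave means from -0.65 to -0.09 where above the filter, one of them with opposed hairpins at -0.70 and 0.52, and the other of ZFP36L2 above the filter gave 0.25 and -0.29 by hairpin.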

How the data were processed

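The authors deposited linear intensity values, 1 per probe set and array, which come from MAS5 per the submitters' processing notes; its settings are not given in the labels or the value table. Every array had a 2% trimmed mean of 500.1, and medians ran from 64.9 to 72.8. Arrays have no read depth, so their number limits the precision. Probe sets were named from the platform annotation, with symbols updated through RefSeq, and those of several genes were left out.

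Each intensity had 1 added before log2, which understates fold changes of dim genes. A gene was represented by its brightest probe set, and genes with a mean log2 under 5.96 (the all-array median over probe sets, or 61.4 in intensity) were dropped, leaving 12630. The 2-sided tests were those of limma 3.58.1 (R 4.3.3) with an intensity trend in the prior and Benjamini-Hochberg adjustment over all genes tested. The model had the line as a block and 1 knockdown term for the 2 shCNOT3 arrays with DOX, with 2 residual degrees of freedom. Another model added a DOX term and tested the excess over shNTC, with 1. The knockdown model had no DOX term, so its change is not net of DOX. The DOX change of shNTC was part of its residual, and its SE and p-values hold that change as well as the spread between hairpins. The labels give the pairing, an induced and an uninduced array for every line. The hairpins are the replicates of knockdown (n = 2). Repeat cultures are not described, and p-values then measure only the spread between these 6 arrays, which may be technical. On simulated data the share of false calls stayed under the threshold in the knockdown model. It exceeded the threshold in the model of the excess over shNTC, whose adjusted p-values may therefore be too small. The simulated data held no DOX effect apart from knockdown. They therefore cannot show how often the knockdown model calls a gene for an effect of DOX itself.

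The 10 genes, the gene lists and the markers were chosen with earlier results of these data known. Up to 4 genes per list were named, those with the largest smaller change of the hairpins where both had the same direction. Alternatives covered scaling, the added constant, the filter, the choice of probe set, the block, the form of the prior, and leaving out a line at a time. Promoter sequences are from RefSeq (GRCh38.p14), with 7 of the 10 genes matched. Python 3.11.15 with matplotlib 3.10.9 made the figures.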

Additional observations from a re-analysis of the deposited data

Results flagged for a closer look

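In 3 of the 10 genes the CNOT3 hairpins moved in opposite directions with DOX, and the difference between the hairpins was not tested. The log2 change in shCNOT3-2 was above that in shCNOT3-1 by 1.56 for KLF6, by 0.74 for KLF4 and by 0.48 for MYC. In 3 others both hairpins moved opposite to the shNTC line. The mean change of the hairpins was above that of shNTC by 1.70 for KLF2, by 1.45 for KLF5 and by 1.34 for EGR1, and in the limma model of that difference the adjusted p was 0.295, 0.303 and 0.573. Opposite signs between the hairpins were seen in 39.9% of all genes tested, and both hairpins opposite to shNTC in 31.0%.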

How the results depend on the processing

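The count of the 10 genes that passed for knockdown was 0 with each alternative except the one with no line block, which gave 2 (KLF2 and NR4A1). For the excess over shNTC it was 0 with each alternative run. The count over all genes tested, 28, moved further: to 59 with array medians set equal, 3 with no filter on dim genes, 51 with a filter at the 75th percentile, 6 with the mean of probe sets, 0 with no intensity trend in the prior, 67 with a robust prior, 191 with no line block, 57 without the shNTC line and 62 without the shCNOT3-2 line. It was 26 after quantile normalization, 36 with a constant of 16 and 39 without the shCNOT3-1 line. The cause of these differences was not tested. The filters, the form of the prior and leaving out shNTC cannot alter a gene's knockdown change. Nor can the mean of probe sets where a gene has a single one. Such fixed values are among the 127 recomputed knockdown changes of the 10 genes, of which 4 reversed. IER2 gave 0.082 with no line block, KLF4 gave 0.14 without shCNOT3-1, and without shCNOT3-2 KLF6 gave -0.56 and MYC -0.18, because the hairpins of these 3 genes oppose each other and a single hairpin is left. Adding a constant cannot change the sign of a given probe set's DOX change. The mean of probe sets cannot alter KLF10, IER2, IER3 and MYC, which have a single probe set each. With these included, of 120 recomputed DOX changes in single lines none changed sign under scaling, the constant or the mean of probe sets. Of the 120, 11 moved by more than the SD of the uninduced arrays. Of these 11, 10 came from the mean of probe sets, such as EGR1 in shNTC at -1.52 and KLF4 in shCNOT3-1 at -1.45. The other was KLF10 in shCNOT3-2, at -0.50 with array medians set equal. The signal over background limits EGR1, whose other probe sets were too dim for the test, and the dim second probe set of KLF2.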

Other observations

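Over the 6 arrays, which come in pairs from 3 lines, log2 levels of the 10 genes were most alike for KLF2 and NR4A1 (r = 0.911), KLF2 and KLF5 (0.853) and KLF2 and EGR1 (0.851), and most opposed for KLF10 and IER3 (-0.805). The tested genes most like KLF2 were RNF214 (r = 0.998), MTMR2 (0.996) and SNAPC1 (0.995), and those most like NR4A1 were TXNRD2 (0.996), ZGPAT (0.994) and PGLYRP4 (0.989). With so few arrays 179 genes reached an r of at least 0.95 with KLF2 and 105 with NR4A1, so these names are a description of 6 arrays only. For KLF6, whose hairpins oppose each other, 21 genes did, led by FRMD6 (0.981), EHBP1L1 (0.979) and SLC10A4 (0.978).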
